A study of Mus musculus with 18 samples.

Results

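The genes described here are the cytosolic and mitochondrial chaperones, the proteins that help other proteins fold, together with the factors that switch chaperone genes on. They were taken from a list of 41 gene symbols and looked up by Ensembl ID in a table of read counts for 43629 mouse gene IDs. All 41 were found, and all 41 were among the 15671 genes that passed a filter on low counts. The cells were mouse cortical neuronal cultures, transduced with lentivirus on day 7 in vitro and harvested 10 days later. The Psmb5 group overexpressed Psmb5, the chymotrypsin-like subunit of the constitutive proteasome. The Psmb8 group overexpressed Psmb8, the subunit that takes the place of Psmb5 in the interferon-inducible immunoproteasome. The mSc group overexpressed the red fluorescent protein mScarlet and was the control. Each group had 6 libraries, numbered 1 to 6, from poly(A)-enriched RNA. The comparisons ask what an excess of either subunit does to neurons, and here what it does to the RNA of the folding machinery. The protocol text attached to all libraries also names an Ifng construct, while the sample tags and the design text do not. The labels do not say whether the 6 libraries of a group came from separate animals or cultures, so p-values speak only of how far these libraries spread, which may be a technical spread. In a culture of mixed cells, fewer cells of a type and less RNA per cell cannot be told apart.

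The overexpressed genes matched the labels in every library. Psmb5 was at 238 to 561 CPM (counts scaled to the size of the library) in Psmb5 cultures, 45.8 to 51.1 CPM in Psmb8 cultures and at most 45.1 CPM in mSc cultures. Psmb8 was at 0.49 to 14.6 CPM in Psmb5 cultures, 546 to 1056 CPM in Psmb8 cultures and 0.84 to 19.4 CPM in mSc cultures. Library totals were 16055974 to 19640543 counts in Psmb5 cultures, 16091906 to 18630396 in Psmb8 cultures and 15337511 to 21074229 in mSc cultures. Neuronal markers were present in all libraries, with all 16 on the list above the low-count filter, and so were all 17 astrocyte markers. The summed astrocyte markers were at 3852 to 8830 CPM in Psmb5 cultures, 3464 to 9001 CPM in Psmb8 cultures and 3779 to 10682 CPM in mSc cultures. Of 15 microglial markers 3 passed the filter, and of 16 vascular and fibroblast markers 7 did, with the endothelial gene Cldn5 at 0 in every library. Libraries with the same number deviated together: the correlation of their deviations from the group means, across genes, was 0.45 to 0.73 over 18 same-numbered pairs. The replicate number was therefore also used as a block.

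Newly made and damaged proteins are held and refolded by Hsp70 proteins, which work in cycles driven by ATP. J-domain proteins bring clients to Hsp70 and start its ATP hydrolysis, and Hsp110 proteins and BAG-domain proteins help it let go of the spent nucleotide. Clients such as kinases and steroid receptors are passed on to Hsp90 through linking proteins. Actin and tubulin, which neurons need in large amounts, fold inside the CCT ring. In mitochondria, imported proteins are folded by mortalin and by the Hsp60 and Hsp10 chamber. When the proteasome or the folding machinery is overloaded, heat shock factor 1 (HSF1) is released from chaperones and binds heat shock elements in the promoters of the inducible genes. Those elements are runs of the unit GAA and its reverse complement TTC, separated by 2 bases.

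HSF1 acts through heat shock elements, so the promoter stretches of members that hold such runs are shown first. Promoters were taken from RefSeq on GRCm38.p6, from 250 bases before to 50 bases after each start, and 33 of the 41 members had one. Hsf1, Hspa8, Hspa9, Hsp90aa1, Hsp90ab1, Dnajc5, St13 and Cct4 had none and were not searched. A run of 3 units, spelled GAANNTTCNNGAA or TTCNNGAANNTTC and searched on both strands, was in the promoters of 5 of those 33 members and of 0.662% of 27025 genes. The 5 were Hspe1, Hspd1, Dnajb6, Hsph1 and Chordc1. In these stretches, capitals mark the 3 units and the bases between them, and each runs 5′ to 3′ on the strand of its gene.
Hspe1, chr1:55088051-55088079, plus strand: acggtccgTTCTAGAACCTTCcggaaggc
Hspe1, chr1:55088056-55088084, plus strand: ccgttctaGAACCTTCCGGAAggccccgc
Hspd1, chr1:55088056-55088084, minus strand: gcggggccTTCCGGAAGGTTCtagaacgg
Dnajb6, chr5:29735844-29735872, plus strand: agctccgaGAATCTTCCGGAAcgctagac
Hsph1, chr5:149636280-149636308, minus strand: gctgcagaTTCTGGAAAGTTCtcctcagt
Chordc1, chr9:18292255-18292283, plus strand: tgcaaccgGAACGTTCGGGAAaattcctg
The Hspe1 and Hspd1 matches are the same bases read on opposite strands. These genes encode mitochondrial Hsp10 and Hsp60, and lie head to head, and the table lists more than 1 start for Hspd1. From the Hspd1 start at base 55087932 the Hspe1 start is 216 bases away, with the element between them. The other Hspd1 start, at base 55088243, lies past the Hspe1 start, so the element is not between those starts, and the window of that start holds no run of 3 units. In Hspe1 the overlapping matches begin 89 and 84 bases upstream of the start, and in Dnajb6 46 and 127 bases upstream of its listed starts. Chordc1 has 3 overlapping matches, of which the first, shown here, begins 4 bases upstream and the others 1 and 6 bases downstream of the start. In Hsph1 the match lies 15 and 36 bases downstream of its listed starts.

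A shorter run of 2 units, GAANNTTC or TTCNNGAA, which is also inside every run of 3, was in 16 of the 33 member promoters and in 17.0% of genes. The genes of the stress-inducible Hsp70 proteins and of Hsp27 carry such runs, printed here with the 2 units and the bases between them in capitals.
Hspa1a, chr17:34972243-34972270, minus strand: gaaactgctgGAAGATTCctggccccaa
Hspa1b, chr17:34959325-34959352, minus strand: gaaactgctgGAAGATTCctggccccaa
Hspb1, chr5:135887792-135887819, plus strand: ttcaacaagaGAAGTTTCcagatggggg
Hspb1, chr5:135887812-135887839, plus strand: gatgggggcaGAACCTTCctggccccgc
The Hspa1a and Hspa1b stretches are identical, and the whole promoters of these neighbouring copies were the same at 296 of 300 bases. A CCAAT box (CCAAT or ATTGG, both strands) was in 13 of the 33 member promoters and in 41.1% of genes. TATAAA or TTTATA was in 1 member promoter, that of Stip1, and in 15.7% of genes. A match describes these letters only and is no evidence that a factor bound there.

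In control cultures the members spanned a wide range of abundance. Levels were compared in TPM of the mSc libraries, counts per length of all annotated exons of a gene, scaled to the library. That length can exceed the length of the transcripts expressed, so the order of the members depends in part on the annotation. The cytosolic Hsp90 gene Hsp90ab1 was at 1932 ± 114 TPM (SD, n = 6), the constitutive Hsp70 gene Hspa8 at 1426 ± 142 TPM and the second cytosolic Hsp90 gene Hsp90aa1 at 835 ± 33.9 TPM. These led the list, and their ranges over the mSc libraries did not overlap. Next came Hspa9, the mitochondrial Hsp70 mortalin, at 277 ± 41.1 TPM, Hspd1, mitochondrial Hsp60, at 268 ± 17.8 TPM, Bag1, a nucleotide exchange factor of Hsp70, at 263 ± 17.3 TPM, and Stip1, the linker from Hsp70 to Hsp90, at 253 ± 24.8 TPM. Those neighbours differed by less than their SDs.

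Members of low abundance included inducible genes and a heat shock factor gene. Hspa1b was at 18.5 ± 9.3 TPM and Hspa1a at 16.2 ± 3.7 TPM, and both encode inducible Hsp70. Bag3, which links Hsp70 to autophagy, was at 8.5 ± 2.1 TPM, and Hspb1, the small heat shock protein Hsp27, at 7.4 ± 3.7 TPM. Hsf2, a heat shock factor, was at 13.0 ± 1.0 TPM. Other heat-inducible HSF1 targets stood higher in the order, such as Hspe1 at 113 ± 10.2 TPM, Hsph1 at 113 ± 12.7 TPM and Dnaja1 at 84.6 ± 4.9 TPM. Hspb8, the small heat shock protein that works with Bag3, stood higher, at 48.9 ± 13.2 TPM. The 7 listed CCT genes lay between 61.2 ± 4.4 TPM for Cct3 and 228 ± 20.3 TPM for Cct2. The exon lengths of Cct3 and Cct2 were 6370 and 2557 bases, and their counts over all 18 libraries 32575 and 47841. The gap in TPM therefore depends in part on the annotation. How reads that map to more than 1 place were counted is not given, and some members have close copies. Hspa1b and Hspa1a shared 62.3% and 60.3% of their 50-base stretches with other transcripts, mainly with each other. The share was 48.8% for Hspb1, 47.5% for Hsp90aa1, 39.7% for Hspd1, 38.6% for Hspa8 and 19.6% for Ptges3, so counts of these genes are uncertain.

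**Figure D1:**
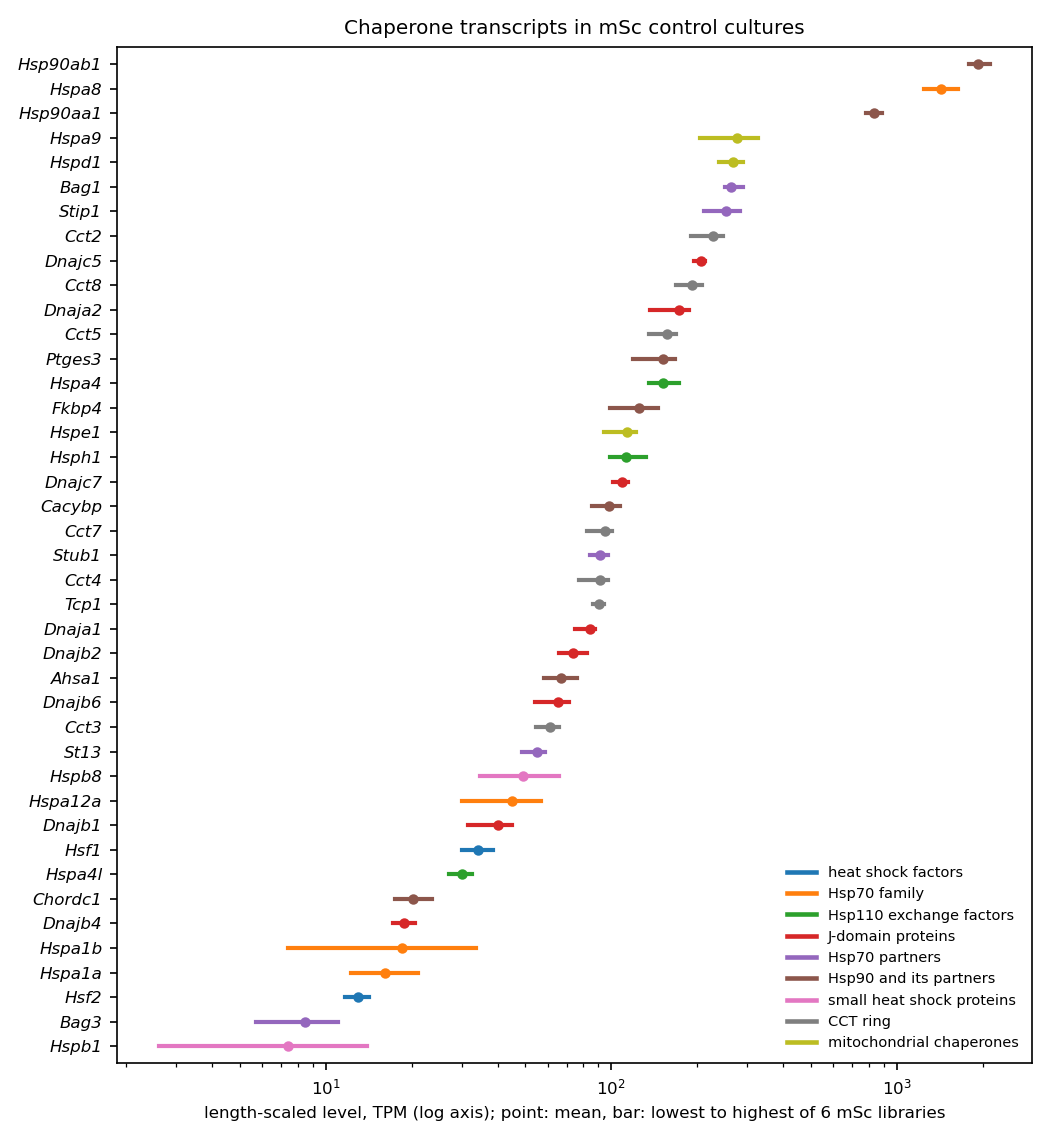
Length-scaled level of the 41 members in the 6 mSc libraries, in TPM on a log axis, with the mean as a point and the lowest and highest library as the line ends. Hsp90ab1, Hspa8 and Hsp90aa1 stand above the rest, and Hspb1 and Bag3 at the bottom.

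Overexpression of Psmb5 was accompanied by no called difference in a chaperone gene. In Psmb5 against mSc cultures, 0 of 41 members passed an adjusted p of 0.05 in edgeR's quasi-likelihood test. Of all 15671 genes 1 did (0.00638%), so calls were rare at large, and DESeq2 called 0 members too. At an unadjusted p under 0.05 there were 0 members, against 0.944% of all genes. The median log2 fold change of the members was 0.02, with 33 of 41 above 0, beside a median of 0.00 and 50.5% above 0 over all genes. The 95% interval lay within 1.2-fold of equality for 34 of the 41 members and for 43.7% of all genes (59.3% of the 11549 genes with a mean of at least 5 CPM, a level that 40 of the members reach). These values bound most members to small differences, without showing that the groups were alike.

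Blocking on the replicate number takes out the spread that the numbers carry. In that fit 3 members had an unadjusted p under 0.05 in Psmb5 against mSc cultures, all higher. Among all genes 3.4% were higher and 3.47% lower by that rule, and 4.01% and 3.8% of the genes with a mean of at least 5 CPM, while 0 members were lower. St13, which holds Hsp70 in its client-bound state, had a lowest, median and highest level of 141, 151 and 168 CPM in Psmb5 cultures and 133, 143 and 158 CPM in mSc cultures. The ranges overlapped. St13 was higher in the Psmb5 library of all 6 same-numbered pairs, with a log2 fold change of 0.08 (SE 0.03 with the block, 0.06 without). Its adjusted p in edgeR was 0.629 with the block. Here and below, genes were picked by a small p with the block, so their counts of pairs are no separate support. The share of all genes higher in 6 of 6 pairs was not counted. Dnaja1, a J-domain protein that delivers clients to Hsp70, was at 179, 197 and 206 CPM in Psmb5 cultures and 172, 184 and 197 CPM in mSc cultures. It was higher in 5 of 6 pairs, with a log2 fold change of 0.08 (SE 0.04 with the block; adjusted p = 0.700). Hspa4, an Hsp110 exchange factor, was at 185, 234 and 243 CPM in Psmb5 cultures and 184, 214 and 243 CPM in mSc cultures, and was higher in 4 of 6 pairs.

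By role, the members differed little between Psmb5 and mSc cultures, here in the fit with group only. The heat shock factor genes Hsf1 and Hsf2 had log2 fold changes of -0.01 and 0.00 (SE 0.08 and 0.07). All 7 members of the Hsp90 group were above 0, between 0.00 for Hsp90ab1 and 0.09 for Ptges3. So were all 7 listed CCT genes, between 0.01 and 0.04. Over the alternatives the fewest above 0 were 3 of 7 in the Hsp90 group and 4 of 7 listed CCT genes. Hspa8 had a log2 fold change of 0.00, with an interval of -0.17 to 0.18. The low inducible genes were bounded least: Hspb1 was at -0.31 with an interval of -1.37 to 0.75, Hspa1b at -0.23 with -0.93 to 0.48, and Bag3 at 0.12 with -0.35 to 0.60. With the block, no interval reached further from 0 than 0.93 in the small heat shock proteins. The furthest was 0.43 in the Hsp70 family and 0.40 in the Hsp70 partners. Intervals given below with the block are not comparable with those of the group-only fit. The mitochondrial genes Hspa9, Hspd1 and Hspe1 had log2 fold changes of 0.05, 0.06 and 0.03.

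**Figure D2:**
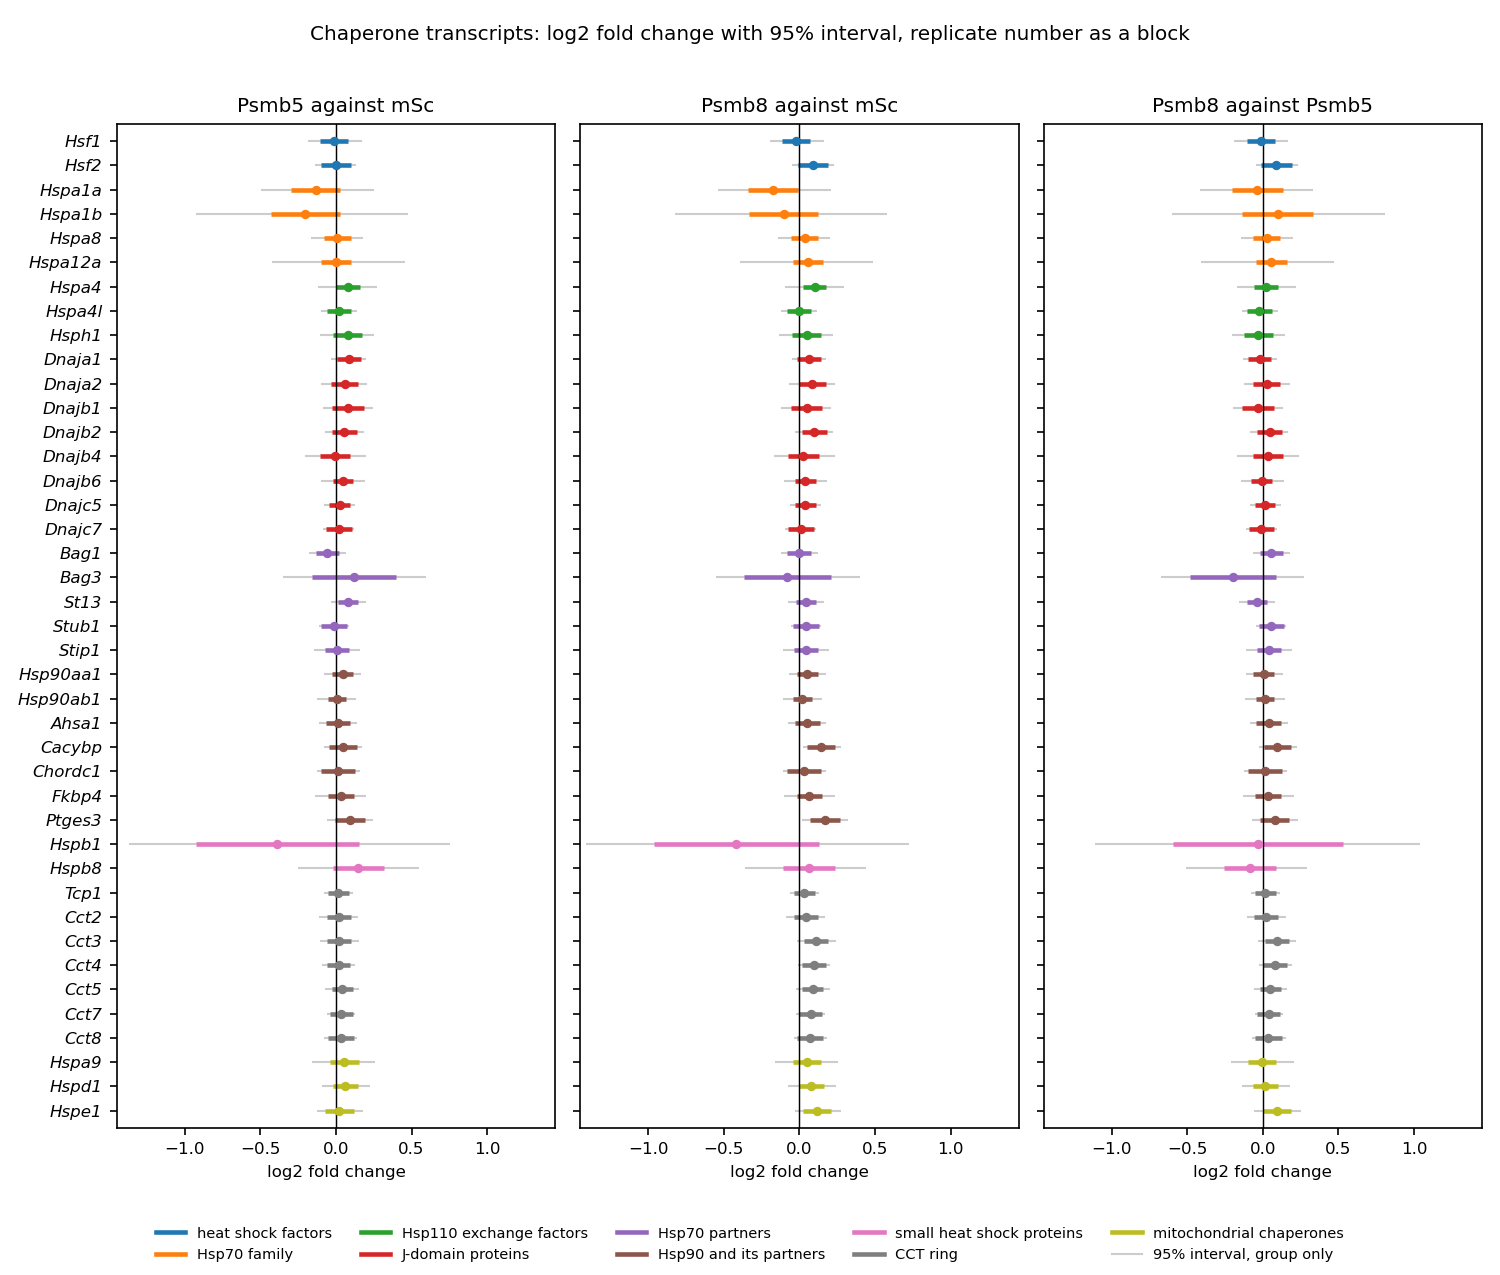
Log2 fold change of each of the 41 members in the 3 comparisons, with the replicate number as a block (points with 95% intervals) and with group only (grey). Most intervals cross 0 and are narrow, and those of Hspb1, Hspa1b and Bag3 are wide.

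Psmb8 cultures, too, had no chaperone gene that passed the test. In Psmb8 against mSc cultures 0 of 41 members passed the adjusted threshold in edgeR, where 1 of all 15671 genes did (0.00638%). With the block 0 members passed, where 51 of all genes did (0.325%). DESeq2 called 0 members with and without the block. Without the block, 2 members had an unadjusted p under 0.05, Cacybp and Ptges3, both higher, beside 2.17% of all genes (1.1% higher and 1.07% lower). With the block there were 8 higher and 1 lower, beside 5.44% of all genes higher and 5.25% lower, or 6.65% and 5.83% of the genes with a mean of at least 5 CPM. The 8 higher members were Ptges3, Cacybp, Cct3, Hspa4, Cct5, Hspe1, Cct4 and Dnajb2, and the lower 1 was Hspa1a. All members were measured in the same libraries, so these counts are not independent of each other.

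Ptges3 and Cacybp had the smallest p-values in Psmb8 against mSc cultures, and both encode partners of Hsp90. Ptges3, the co-chaperone p23 that holds Hsp90 closed on its client, had a lowest, median and highest level of 87.9, 91.7 and 114 CPM in Psmb8 cultures and 70.1, 88.1 and 91.8 CPM in mSc cultures. The ranges overlapped, and the Psmb8 library was higher in all 6 same-numbered pairs, by the most in number 4 (114 CPM in Psmb8, 89.9 CPM in mSc) and by the least in number 6 (90.4 CPM in both). The log2 fold change was 0.17 with the block (SE 0.05, 95% interval 0.07 to 0.27, 12.4% higher), with an adjusted p of 0.132 in edgeR. Without the block it was 0.17 (SE 0.07, adjusted p = 1.0), and over 26 alternatives it ran from 0.12 to 0.23, with adjusted p-values from 0.069 to 1.0. Cacybp, a calcyclin-binding protein that also binds Hsp90 and a ubiquitin ligase, was at 58.6, 64.5 and 74.3 CPM in Psmb8 cultures and 54.1, 59.3 and 64.9 CPM in mSc cultures. It was higher in 5 of 6 pairs, with a log2 fold change of 0.14 with the block (SE 0.04, interval 0.05 to 0.24, adjusted p = 0.195).

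The 7 listed CCT ring genes, which leave out Cct6a, were all slightly above mSc in Psmb8 cultures. They lay between 0.03 for Tcp1 and 0.11 for Cct3 on the log2 scale, with a median of 0.07. That all 7 lay above 0 did not hold under every alternative: the fewest above 0 was 5. Cct3 was at 97.5, 104 and 124 CPM in Psmb8 cultures and 92.0, 98.9 and 107 CPM in mSc cultures, higher in 6 of 6 pairs (log2 fold change 0.11, SE 0.04 with the block; edgeR adjusted p = 0.267). The other 2 listed CCT genes with an unadjusted p under 0.05 with the block were Cct5 at 0.09 and Cct4 at 0.10. Those values overlapped between groups.

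Core folding enzymes were bounded tightly in Psmb8 against mSc cultures in the fit with the block. Hspa8 had a log2 fold change of 0.03 with an interval of -0.05 to 0.12 with the block, Hsp90ab1 of 0.02 with -0.04 to 0.08, and Hsp90aa1 of 0.05 with -0.02 to 0.12. In the mitochondrial group, Hspe1 was at 0.12 (SE 0.04), Hspd1 at 0.08 (SE 0.04) and Hspa9 at 0.05 (SE 0.05). Hsf1 was at -0.02 and Hsf2 at 0.09, and Hsf2 was higher in the Psmb8 library of all 6 pairs (adjusted p = 0.524).

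Inducible chaperones had values on both sides of 0 in Psmb8 against mSc cultures. Of the 11 heat-inducible HSF1 targets, 7 were above 0, with a median log2 fold change of 0.04 without the block. Hspa1a was at 8.30, 10.2 and 14.0 CPM in Psmb8 cultures and 9.69, 11.4 and 15.4 CPM in mSc cultures, lower in 5 of 6 pairs. Its log2 fold change was -0.17 (SE 0.08 with the block, adjusted p = 0.445 in edgeR). In Psmb5 against mSc cultures Hspa1a was also below 0 in all 26 alternatives, from -0.24 to -0.04. In Psmb8 against Psmb5 cultures it ran from -0.13 to 0.05, so values below 0 were not particular to Psmb8 cultures. Hspb1, with 7 to 73 counts a library, was at 0.41, 1.11 and 3.41 CPM in Psmb8 cultures and 0.71, 1.77 and 3.56 CPM in mSc cultures. Its log2 fold change was -0.42 with the block, with an interval of -0.96 to 0.13, so it is not bounded to a small difference. Bag3 was at -0.08, with an interval of -0.37 to 0.21. Interferon-stimulated genes lay mostly below 0 in the same comparison: 24 of the 26 tested were below 0 with the block, 14 lower at an unadjusted p under 0.05, where 5.25% of all genes were, and 1 at the adjusted threshold, where 0.325% of all genes were called. In Psmb5 against mSc cultures, which share the mSc libraries, 0 of the 26 were above 0 with the block. There 6 were lower at an unadjusted p under 0.05, where 3.47% of all genes were, and 0 passed the adjusted threshold. Lower values were thus not particular to Psmb8 cultures. All 26 were measured in the same libraries, so these counts are not independent of each other. Summed over the list, the gap was widest in numbers 3 and 6. Psmb8 cultures were at 699 and 1288 CPM there, Psmb5 cultures at 777 and 1582 CPM and mSc cultures at 963 and 1907 CPM. Sums in numbers 1, 2 and 5 were 275, 269 and 283 CPM for Psmb8 and 271, 276 and 272 CPM for mSc. In number 4 they were 199 and 243 CPM. The part of interferon-stimulated genes in the chaperone values was not tested.

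Over all 41 members, the median log2 fold change in Psmb8 against mSc cultures was 0.05, with 35 above 0, beside 0.00 and 50.3% over all genes. The median over the members was above 0 in each of the 6 same-numbered pairs, from 0.01 to 0.11. The same mSc libraries served the comparison with Psmb5, where it ran from -0.02 to 0.11 with 3 of 6 above 0. No median over all genes was taken pair by pair, so a shift of the members is not separated there from a shift of a whole library. The members' 95% intervals lay within 1.2-fold of equality for 31 of 41 without the block and 36 with it, beside 41.8% and 61.5% of all genes (56.6% and 83.1% of the genes with a mean of at least 5 CPM).

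**Figure D3:**
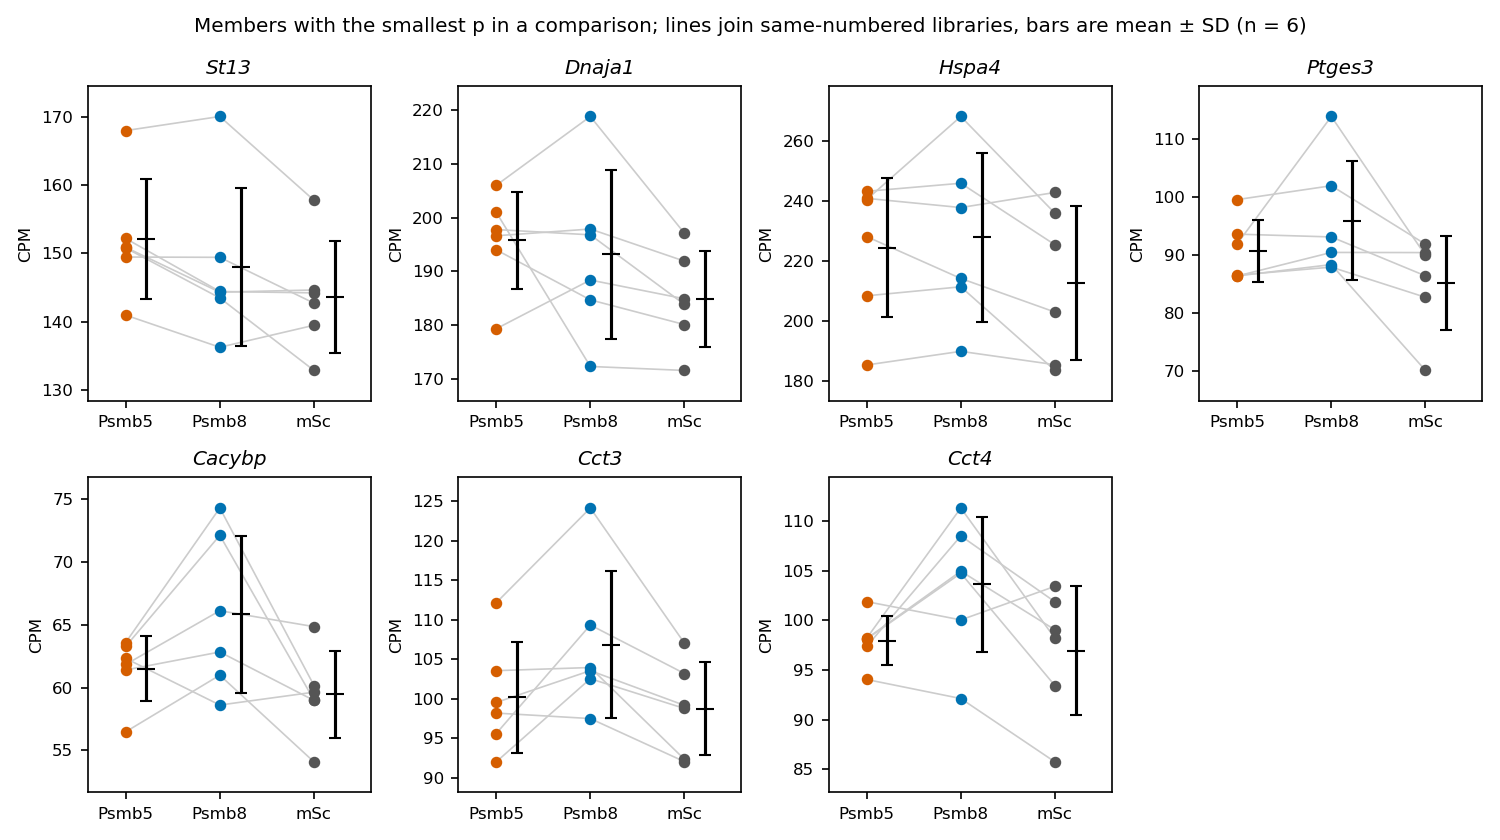
CPM of St13, Dnaja1, Hspa4, Ptges3, Cacybp, Cct3 and Cct4 in each library by group, with lines joining libraries of the same number and the mean ± SD of 6 libraries; axes do not start at 0. Group ranges overlap for all 7 genes, while Ptges3 is higher in Psmb8 than in mSc in all 6 numbers, in number 6 by less than the width of a point.

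Psmb8 and Psmb5 cultures were set against each other directly. In Psmb8 against Psmb5 cultures, 0 of 41 members passed the adjusted threshold, and DESeq2 called 0 members. Of all 15671 genes 2 passed without the block (0.0128%) and 6 with it (0.0383%). At an unadjusted p under 0.05 there were 0 members without the block, beside 1.33% of all genes. With the block there were 4, all higher, beside 3.73% of all genes higher and 3.91% lower (4.23% and 4.26% of the genes with a mean of at least 5 CPM). Those 4 were Cct3, Cacybp, Cct4 and Hspe1. The members' median log2 fold change was 0.03, with 28 of 41 above 0, beside 0.00 and 50.3% over all genes.

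Cct3 was at 97.5, 104 and 124 CPM in Psmb8 cultures and 92.0, 98.8 and 112 CPM in Psmb5 cultures, higher in 5 of 6 pairs, with a log2 fold change of 0.09 (SE 0.04 with the block, adjusted p = 0.594). Cacybp was at 58.6, 64.5 and 74.3 CPM in Psmb8 cultures and 56.5, 62.1 and 63.6 CPM in Psmb5 cultures, with a log2 fold change of 0.10 (adjusted p = 0.639). Both ranges overlapped between the groups. Cct4, another ring subunit, was at 92.1, 105 and 111 CPM in Psmb8 cultures and 94.1, 98.1 and 102 CPM in Psmb5 cultures, with a log2 fold change of 0.08 (adjusted p = 0.644). Hspe1, the lid of the mitochondrial Hsp60 chamber, was higher in the Psmb8 library in 6 of 6 pairs, with a log2 fold change of 0.09 (adjusted p = 0.644). Intervals within 1.2-fold of equality covered 35 of 41 members without the block and 38 with it, beside 43.7% and 62.4% of all genes (59.2% and 84.3% of the genes with a mean of at least 5 CPM). Bag3, at 3.84, 4.47 and 8.68 CPM in Psmb8 cultures and 4.31, 5.92 and 8.05 CPM in Psmb5 cultures, had a log2 fold change of -0.20 with an interval of -0.49 to 0.08.

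The replicate number separated the chaperones far more than the overexpressed gene did. With the group held, 36 of the 41 members differed between numbers at an adjusted p of 0.05 in edgeR, where 64.3% of all genes did, and 72.8% of the genes with a mean of at least 5 CPM. Without number 4 the count was 24 of 41, or 58.5%. In those libraries 57.4% of all genes differed, and 65.8% of the genes with a mean of at least 5 CPM. The members' share was thus near the first and under the second. Those without a call over all 6 numbers were Chordc1, Cct8, Cct7, Dnajc7 and Stub1. The range of the 6 number means exceeded the range of the 3 group means in 41 of 41 members. It did so in 99.0% of genes with a mean of at least 5 CPM, so this is a feature of the libraries at large. Even without a number effect, 6 means of 3 libraries are expected to range wider than 3 means of 6 libraries. The comparison of ranges is therefore no test of the number. The median share of the members' variance of log2 CPM was 70.7% for the number and 5.52% for the group (66.0% and 4.66% over all genes). The number has more levels than the group, so these shares are not on equal terms. Most members moved modestly: 27 of 41 had number means within 1.25-fold and 6 had a range of at least 1.5-fold.

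**Figure D4:**
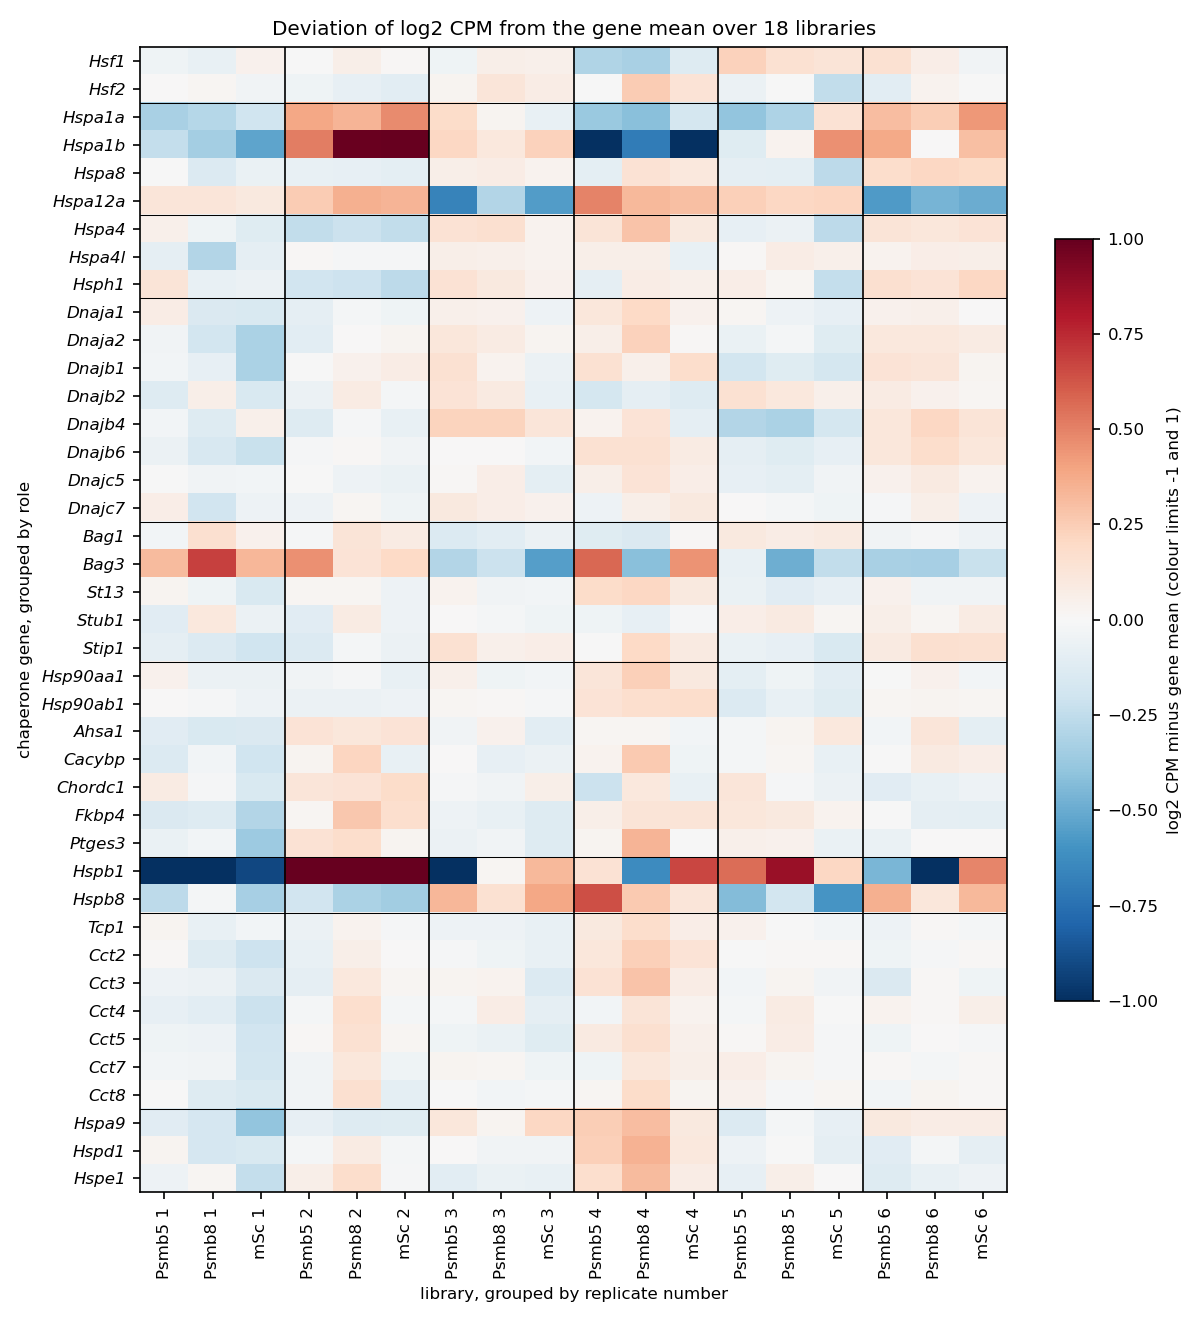
Deviation of log2 CPM from the gene's mean for the 41 members (down) in the 18 libraries (across), grouped by replicate number and ordered Psmb5, Psmb8, mSc within each; colours end at ±1. Blocks of equal colour follow the numbers across all 3 groups.

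The members with the widest ranges between numbers were inducible or small chaperones and 1 distant Hsp70. Hspb1 had number means, from 1 to 6, of 0.636, 3.51, 1.18, 1.49, 1.98 and 1.09 CPM, highest in number 2 in all 3 groups. Hspa1b had means of 8.60, 20.3, 12.6, 5.53, 12.2 and 13.0 CPM, a 3.67-fold range, also highest in number 2 and lowest in number 4. Hspa1a followed the same order at its ends, at 14.7 CPM in number 2 and 8.93 CPM in number 4, but the genes share sequence. Hspa12a, a distant Hsp70 relative expressed in brain, had means of 111, 128, 72.6, 133, 119 and 72 CPM. Its 6 libraries of numbers 3 and 6 lay between 64.4 and 83.6 CPM and the other 12 between 109 and 144 CPM, with no overlap. Hspb8 was at 21.5, 20.2, 30.2, 31.6, 18.8 and 29.7 CPM, and Bag3 at 7.40, 6.51, 4.24, 6.49, 4.5 and 4.41 CPM. Hspb8 and Hspa12a were thus both high in number 4, while in numbers 3 and 6 Hspb8 was high and Hspa12a low.

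The core machinery followed the numbers with smaller steps. Hsp90ab1 had number means of 1454, 1420, 1480, 1647, 1366 and 1496 CPM, and Hspd1 of 173, 187, 182, 217, 179 and 176 CPM, both highest in number 4. Hspe1, the head-to-head neighbour of Hspd1, was at 41.1, 46.0, 41.2, 49.7, 43.5 and 41.1 CPM, and was likewise highest in number 4. Hspa8, at 1491, 1477, 1626, 1624, 1410 and 1786 CPM, was highest in number 6. In all, 23 of 41 members were highest in number 4, where 20.8% of all genes were, and 20 of 41 were lowest in number 1, where 20.2% of all genes were.

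Other gene lists moved with the numbers too. Summed interferon-stimulated genes were at 813 and 1592 CPM in numbers 3 and 6 and at 220 to 277 CPM in the other 4, and 26 of 29 on the list were tested. By group they were at 218 to 1582 CPM in Psmb5, 199 to 1288 CPM in Psmb8 and 243 to 1907 CPM in mSc cultures. Summed astrocyte markers were at 9504 CPM in number 1 and at 3848 to 4165 CPM in the others. Summed oligodendrocyte lineage markers, of which 10 of 13 were tested, ran from 302 CPM in number 6 to 901 CPM in numbers 1 and 4, and summed neuronal markers from 5098 to 6621 CPM. The part of these in the chaperone differences was not tested.

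**Figure D5:**
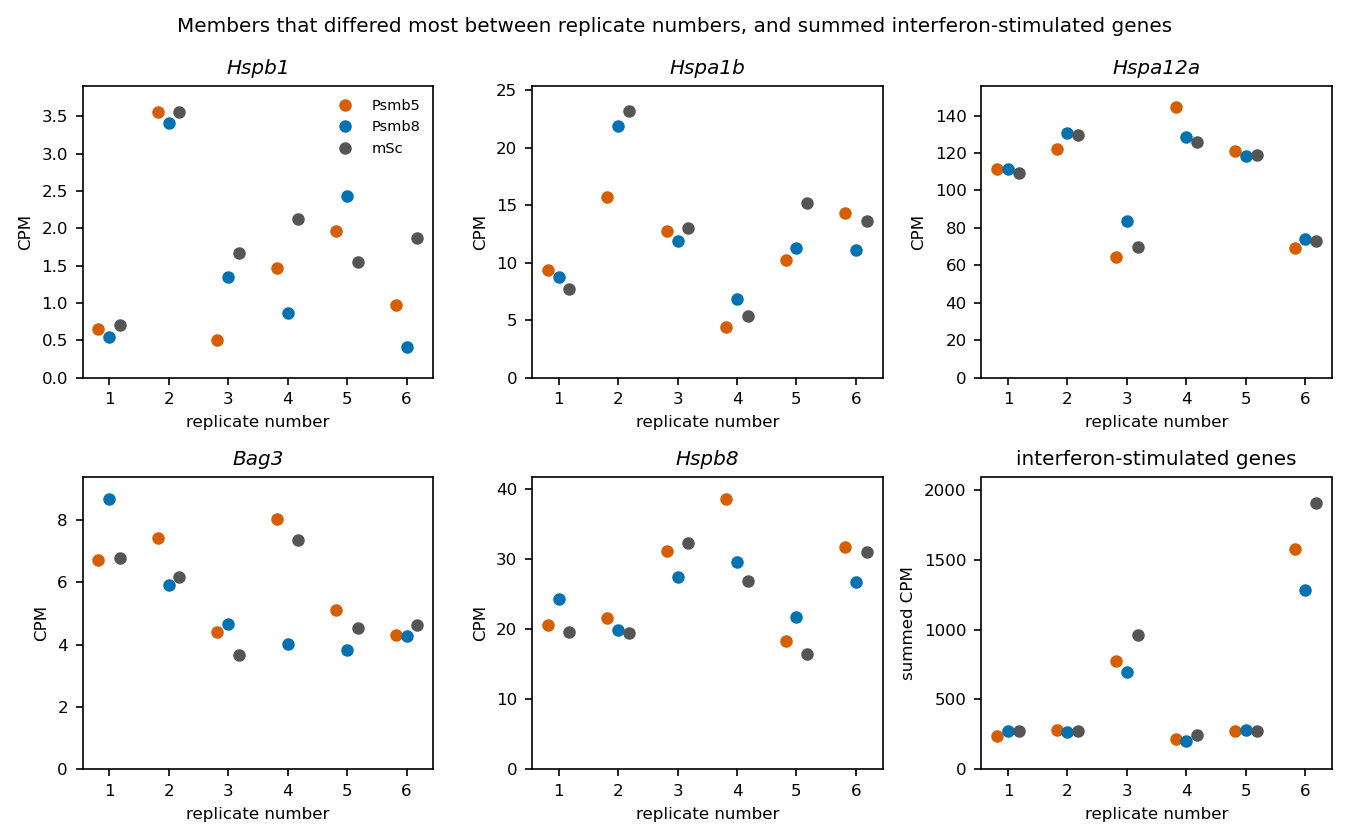
CPM of Hspb1, Hspa1b, Hspa12a, Bag3 and Hspb8 and summed CPM of interferon-stimulated genes in each library, by replicate number, with the groups as separate markers. Hspa12a is low and the interferon-stimulated genes high in numbers 3 and 6, and Hspb1 and Hspa1b are highest in number 2.

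Chaperone genes outside the list were counted in the same fits. Of 67 other cytosolic chaperones and 20 other mitochondrial chaperones and proteases that were tested, 0 passed the adjusted threshold in any of the 3 comparisons in edgeR, with or without the block. With the block, unadjusted p-values under 0.05 numbered 1 higher and 1 lower of the 67 in Psmb5 against mSc cultures, 4 higher and 2 lower in Psmb8 against mSc cultures, and 2 higher and 1 lower in Psmb8 against Psmb5 cultures. Over all genes these shares were 3.4% and 3.47%, 5.44% and 5.25%, and 3.73% and 3.91%, so the counts are near those shares or under them. The genes with the smallest p-values are given as values only. Tomm34, which ties Hsp70 and Hsp90 to mitochondrial import, had means of 44.7 ± 4.7 CPM in Psmb8 cultures and 50.4 ± 5.0 CPM in mSc cultures (SD, n = 6 each). Its log2 fold change was -0.17 (SE 0.05 with the block, adjusted p = 0.173), with the Psmb8 library lower in all 6 pairs. Hspbp1, an Hsp70 exchange factor, was at -0.15 (SE 0.05, adjusted p = 0.199). Bag2, which keeps Hsp70 clients from ubiquitination by CHIP, averaged 10.9 ± 0.64 CPM in Psmb8 cultures and 9.21 ± 0.51 CPM in Psmb5 cultures. It was higher in 6 of 6 pairs (log2 fold change 0.24, SE 0.08 with the block, adjusted p = 0.391). In Psmb5 against mSc cultures the smallest p-values were those of Dnajc2, a ribosome-bound J-domain protein, at 0.13 (SE 0.05, adjusted p = 0.624), and Unc45a, an Hsp90 partner for myosin, at -0.08 (SE 0.04, adjusted p = 0.693).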

How the data were processed

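Poly(A)-enriched RNA of 18 libraries was sequenced, per the labels' protocols. The authors deposited raw read counts per Ensembl gene in 1 table, with whole-number values and differing totals. The submitters' processing notes name STAR 2.4, DESeq2, GRCm39 and mm10, with no role. The gene counter, its strand setting, its rule for multiply mapping reads and its annotation are not stated there or in the labels, so reads of overlapping genes and close copies may be split in unknown ways.

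Columns were matched to samples by title, and 42462 of 43629 IDs received a symbol. The test was run on the counts in edgeR 4.0.16 under R 4.3.3 (filterByExpr by group, TMM scaling, quasi-likelihood test, all 18 libraries in 1 fit with group as factor), with Benjamini-Hochberg adjustment over 15671 genes and a threshold of 0.05. SEs came from the F statistic and 95% intervals from its degrees of freedom. CPM values are TMM-scaled. TPM used exon lengths of GENCODE M21 (GRCm38), and 50-base stretches its transcripts. Alternatives were DESeq2 1.42.0, other size factors, other filters, the replicate block and left-out libraries. The method was tested on simulated data. Recovery rates are not given here, so how small a difference would have been called is not stated.

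Numbers were taken to pair the samples, though the labels do not say whether they mark shared cultures. Same-numbered libraries correlated at 0.45 to 0.73 (deviations from group means), other pairs at -0.12 on average. Taking deviations from group means itself pushes the other pairs below 0, so their average is no separate contrast. Over 45 within-group pairs, the chi-square per degree of freedom of the counts was 2.94 to 38.4, so no library appeared more than once within a group. Pairs between groups were not examined in this way. Hspb1 had the fewest counts of the members, and the shares of counting error and of spread between libraries in its wide interval were not separated. The members and lists were chosen with earlier results of these data known. Values by library are given for the 3 members with the smallest blocked p per comparison and for those with the widest range of number means. Other chaperones were named by the 2 smallest blocked p-values. Hspa1a was added after its values were seen.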

Additional observations from a re-analysis of the deposited data

Results flagged for a closer look

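A library stood apart from the other 5 of its group in 2 of 42 gene and group combinations examined, where chance gives about 1 in 20. Cacybp was at 56.5 CPM in Psmb5 library 1, below the 61.4 to 63.6 CPM of the other Psmb5 libraries. Hspa1b was at 21.9 CPM in Psmb8 library 2, above the 6.80 to 11.9 CPM of the other Psmb8 libraries, and it was also highest in number 2 in Psmb5 cultures (15.7 CPM) and in mSc cultures (23.2 CPM).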

How the results depend on the processing

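In all 26 alternatives of each comparison, 0 of 41 chaperone members were called, and the replicate block changed no member's call. The count of all genes called moved: in Psmb5 against mSc cultures it was 1 without the block, 13 with the block in DESeq2 and 2 with the block and numbers 3 and 6 left out. In Psmb8 against mSc cultures it was 1 without the block, 2 in DESeq2, 51 with the block, 138 with the block in DESeq2 and 2 with the block and numbers 3 and 6 left out. In Psmb8 against Psmb5 cultures it was 2 without the block, 4 in DESeq2, 6 with the block, 26 with the block in DESeq2 and 4 with the block and numbers 3 and 6 left out. The cause was not tested, beyond fewer libraries where numbers were left out. With 1 library left out and no block, the counts were 1, 1 to 2 and 2 in the same order. With the block and 1 number left out, they ran from 1 to 3 (3 without number 6) in Psmb5 against mSc, from 9 to 59 in Psmb8 against mSc (57 without number 1, 19 without 2, 9 without 3, 59 without 4, 41 without 5 and 19 without 6) and from 4 to 20 in Psmb8 against Psmb5 (20 without number 4). The members' median log2 fold change ran from 0.0030 to 0.045, from 0.015 to 0.072 and from 0.0021 to 0.040 when 1 was left out. Of the 41 members, 21 kept the sign of their log2 fold change in all alternatives in Psmb5 against mSc cultures, 23 in Psmb8 against mSc and 16 in Psmb8 against Psmb5. Members differing between numbers were 36 (87.8%, with 64.3% of all genes), 30 with numbers 3 and 6 left out (73.2%, with 51.5%) and 24 to 34 with 1 number left out. The fewest were those without number 4 (58.5%, with 57.4% of all genes and 65.8% of the genes with a mean of at least 5 CPM). Hspb1 gave no value under the filter of 5 CPM.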
